A study of Arabidopsis thaliana with 4 samples.

Results

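The genes described here were to be the calcium sensors and calcium-dependent kinases of Arabidopsis: every probe set assigned to exactly 1 gene whose RefSeq symbol or synonym begins with CPK, CDPK, CIPK, CBL, CML or CAM and a digit. This rule found 8 probe sets among the 22746 tested, each for a different gene. All 8 encode calmodulin-like proteins, so the platform annotation named no kinase of these families and the group is called the calmodulin-like (CML) genes below. RefSeq gives such a name to 91 genes, of which 34 are calcium-dependent protein kinases, 26 are CBL-interacting protein kinases, 12 are calmodulin-like proteins, 10 are calcineurin B-like proteins and 9 are calmodulins. The kinases, the calcineurin B-like proteins and the calmodulins had no member, and a comparison between the classes could not be made. This includes CPK11 and CIPK11, kinases known to phosphorylate Di19 proteins, which were not analysed here.

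The arrays were made from whole 10-day-old seedlings of the Atdi19-3 mutant (2 arrays) and of the wild type (2 arrays). Both genotypes have the Col-0 background and were harvested without any treatment. The mutant is a single T-DNA insertion line, with the insertion in an exon of the gene for the zinc finger protein Di19-3 and, per the study, a reduced transcript. No probe set is named for that gene in the sources used here, so its own level gave no check of the labels. The labels name both arrays of each genotype as biological replicates, and p-values measure the spread between these arrays.

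Calcium ions carry many signals in plant cells, and EF-hand proteins read them. Calmodulins and calmodulin-like proteins are sensors with no catalytic domain that change shape on binding calcium and then act on other proteins. Calcineurin B-like proteins work with the CBL-interacting kinases, whereas a calcium-dependent protein kinase holds the sensor and the kinase in one chain. Several CML genes are known for rapid induction by touch, wounding or low oxygen.

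All values are deposited log2 values of the GCRMA method, which corrects for background and normalizes the arrays. Their lowest value, 2.49, was shared by the 4 arrays. A level of 3 was taken here as the border of the floor. The arrays differed between the genotypes beyond single genes. All 18 spike-in control probe sets, for transcripts added to every hybridization, were lower on both Atdi19-3 arrays, with array medians of 5.92 and 6.20, against 9.69 and 9.41 on the wild-type arrays. Values above 4 were held by 14.1% and 13.5% of the tested probe sets on the Atdi19-3 arrays and by 7.10% and 8.34% on the wild-type arrays. The deposited values thus did not share one distribution across the 4 arrays. The array difference and the genotype cannot be told apart. Of the markers of the labelled tissue, the 6 named green tissue genes read between 3.27 and 9.78, and limma called 2 of them higher (LHCB4.1 and LHCB4.2) and 0 lower in Atdi19-3. PSBY and PSAN, of the same list, had log2 differences of 1.47 (limma adjusted p = 0.089) and 0.82 (adjusted p = 0.054). LHCB4.3 and PSBW had log2 differences of -0.66 (adjusted p = 0.086) and -0.43 (adjusted p = 0.15). The genotypes did not overlap in any of these. The 2 named root hair expansins, EXPA7 and EXPA18, lay between 2.50 and 2.69 and were absent above the floor in both genotypes. Their part in the results below was not tested.

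Most of the 8 CML genes were dim in these seedlings, as were most tested probe sets. This does not hold for the whole family. CML24, CML35, CML10 and CML13, named only by the study's list of genes higher in the mutant, read above 4 on all 4 arrays and are given at the end. Above 3 on both arrays were 3 of the 8 genes in Atdi19-3 (37.5%, against 29.7% of all tested probe sets) and 2 of the 8 in the wild type (25.0%, against 19.5%). The 2 shared by both genotypes were CML38 and CML37, and the further gene in Atdi19-3 was CML23. CML38 was the 1 gene above 4 on both arrays of a genotype, in Atdi19-3 (12.6% of all tested probe sets) and in the wild type (6.19%). Under 3 on all 4 arrays were 3 genes (37.5%, against 56.0% of all tested probe sets), namely CML41, CML42 and CML43. Their values are those of the floor, where a fall cannot be seen.

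**Figure D1:**
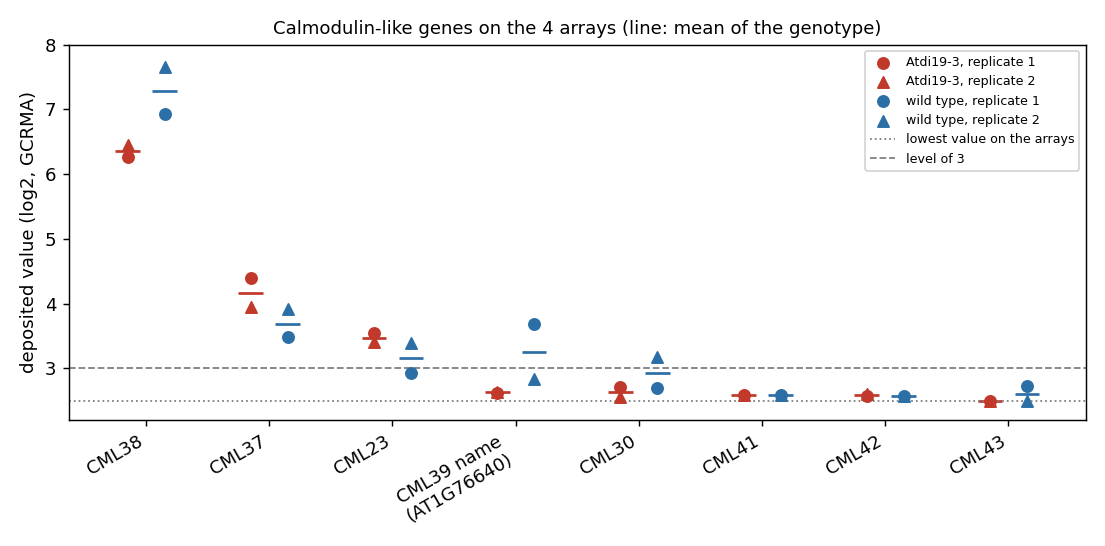
Deposited log2 values of the 8 CML genes, ordered by their mean, with the 2 Atdi19-3 arrays left of the 2 wild-type arrays; short lines are genotype means, the dotted line is the lowest value of the arrays and the dashed line the level of 3. CML38 stands alone at 6.27 to 7.66, CML37 and CML23 lie near or above 3, and CML41, CML42 and CML43 lie at the floor.

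None of the 8 CML genes was called different between the genotypes. Each gene was compared with limma across all tested probe sets, Atdi19-3 minus wild type, and called at a Benjamini-Hochberg adjusted p under 0.05. This called 0 of the 8 genes, with 0 at an unadjusted p under 0.05, whereas 3.76% of all tested probe sets were called and 18.5% had an unadjusted p under 0.05. The study's plot of changed genes used an absolute log2 difference over 1 with a p no greater than 0.05 before adjustment. At these thresholds 0 of the 8 CML genes and 6.70% of all tested probe sets passed. The p here is that of limma, and this share is larger than the study's own count of changed genes. The median log2 difference of the 8 genes was -0.06, beside 0 over all tested probe sets. The arrays of the genotypes did not overlap in 4 of the 8 genes, 2 of them higher and 2 lower in Atdi19-3. Over all tested probe sets 39.0% did not overlap, 28.5% higher and 10.4% lower, so the count among these few genes is not a result about them.

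CML38 (AT1G76650) is a sensor known for its strong induction by wounding and by low oxygen. It was the brightest of the 8 CML genes and had the largest difference in size among them, but did not pass the test. It read 6.27 and 6.45 on the Atdi19-3 arrays, against 6.93 and 7.66 on the wild-type arrays. Both mutant arrays lay below both wild-type arrays. The mean was 6.36 ± 0.13 in Atdi19-3 and 7.29 ± 0.51 in the wild type (SD, n = 2 each). The log2 difference was -0.93 with a standard error of 0.33, a value 1.91-fold higher in the wild type, and was not called (limma adjusted p = 0.38). Its 95% interval ran from -2.14 to 0.27, which includes 0. In whole seedlings, fewer cells that express a gene and less RNA per cell cannot be told apart.

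The rank of CML38 on each array showed the same order. It lay at or above 96.8% and 97.2% of the tested probe sets on the Atdi19-3 arrays and 98.9% and 99.3% on the wild-type arrays. Of all tested probe sets 0.55% (125) had a lower log2 difference than CML38. Most of those tested read near the floor in both genotypes. Among the 495 probe sets with a wild-type mean above 6, 13.3% (66) had a lower difference than CML38, and 37.6% were lower in Atdi19-3 with no overlap. Their median log2 difference was 0.02, and 48.1% had a lower mean in Atdi19-3. These probe sets were chosen on the wild-type arrays alone, where CML38 was higher. Quantile normalization, which gives the 4 arrays one distribution of values, took the difference of CML38 to -1.72 (standard error 0.27). Its limma p was then 0.013 unadjusted and 0.13 adjusted. With probe sets of a mean of 3 or less left out, limma gave CML38 an unadjusted p of 0.032 and an adjusted p of 0.075. That fit called 37.2% of the probe sets kept. The 2 wild-type arrays differed by 0.72, and the difference was -1.29 without the first of them and -0.57 without the second.

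AT1G76640, which lies next to CML38 on the chromosome and carries CML39 as a synonym, also read lower in Atdi19-3 without passing the test. The protein of the CML39 name is known for a role in early seedling establishment. RefSeq lists the synonym CML39 for CML37 too, so the locus is used here. Its values were 2.62 and 2.64 on the Atdi19-3 arrays, against 3.68 and 2.84 on the wild-type arrays. Both mutant arrays were at the floor, and only the first wild-type array was above 3. The log2 difference was -0.63 (standard error 0.37, 95% interval -1.97 to 0.72, limma adjusted p = 0.58). Since arrays of both genotypes were under 3, the size of the difference is not measured. It was -0.21 without the first wild-type array and -1.05 without the second. The fit without the second called the gene (adjusted p = 0.027), with 1 wild-type array and a spread taken from the mutant arrays alone, and it called 16.1% of all tested probe sets. The neighbours did not vary together between the wild-type arrays: AT1G76640 was higher on the first and CML38 on the second.

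CML37 (AT5G42380), a sensor known to act in the response to wounding and herbivores, had the largest positive difference, which did not pass the test. It read 4.40 and 3.94 on the Atdi19-3 arrays, against 3.48 and 3.91 on the wild-type arrays. The second arrays of the genotypes were nearly equal, with the first mutant array above them and the first wild-type array below them by similar amounts. The mean was 4.17 ± 0.33 in Atdi19-3 and 3.69 ± 0.30 in the wild type (SD, n = 2 each), a log2 difference of 0.47 with a standard error of 0.28 (95% interval -0.55 to 1.49, limma adjusted p = 0.58). Leaving out the first mutant or the first wild-type array gave 0.24 or 0.26, and leaving out the second mutant or wild-type array gave 0.71 or 0.69. Quantile normalization turned the direction, to -0.17 (standard error 0.23, adjusted p = 0.69). The gene lay at or above 89.6% and 85.8% of the tested probe sets on the Atdi19-3 arrays and 87.7% and 91.0% on the wild-type arrays, so its ranks overlapped although its values did not.

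CML23 (AT1G66400), known for a shared role with its close relative CML24 in the timing of flowering, read 3.54 and 3.40 on the Atdi19-3 arrays, against 2.93 and 3.39 on the wild-type arrays. The 2 genotypes were separated by the first wild-type array, and the remaining 3 arrays lay within a narrow range. The log2 difference was 0.32 (standard error 0.22, 95% interval -0.46 to 1.1, limma adjusted p = 0.58). This difference was possibly compressed by the floor, because that wild-type array was under 3. Without the first wild-type array it was 0.09, and after quantile normalization 0.01. CML23 lies beside the calmodulin gene CAM4, which was not analysed here.

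CML30 (AT2G15680) read 2.71 and 2.55 on the Atdi19-3 arrays, against 2.69 and 3.18 on the wild-type arrays. The genotypes overlapped, and only the second wild-type array was above 3. The log2 difference was -0.31 (standard error 0.23, 95% interval -1.13 to 0.52, limma adjusted p = 0.58). It was -0.55 without the first wild-type array and -0.06 without the second, and its size is not measured, since arrays of both genotypes were under 3.

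The last 3 genes stayed at the floor. CML43 (AT5G44460), known from pathogen-induced cell death, read 2.49 on both Atdi19-3 arrays, against 2.73 and 2.49 on the wild-type arrays. CML42 (AT4G20780), known from the branching of leaf hairs and from herbivore defence, read 2.58 and 2.60 on the Atdi19-3 arrays, against 2.58 on both wild-type arrays. CML41 (AT3G50770), known from the closing of plasmodesmata in immunity, read 2.59 on all 4 arrays, as 12.1% of all tested probe sets held 1 value on all arrays. A fall from these levels could not have been seen, and none of the 3 reached the level of 3 on any array.

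**Figure D2:**
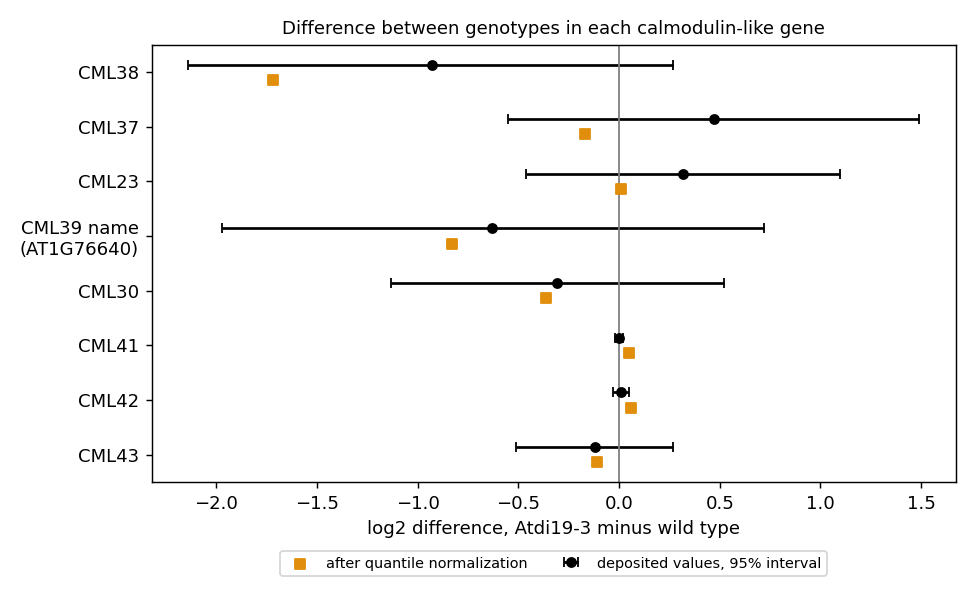
Log2 difference, Atdi19-3 minus wild type, of each CML gene: black points with 95% intervals from limma on the deposited values, and orange squares after quantile normalization. All intervals from the deposited values include 0; CML38 moved further down after quantile normalization (-1.72) and CML37 crossed 0 (-0.17).

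The spread between replicates set the width of these intervals. The gap between the 2 arrays of a genotype had a median over the 8 genes of 0.08 in Atdi19-3 and 0.44 in the wild type, beside 0.03 and 0.11 over all tested probe sets. The wild-type gap was the larger in 5 of the 8 genes, and in 54.4% of all tested probe sets. It was largest for AT1G76640, at 0.83 in the wild type with 0.03 in Atdi19-3. CML38 followed with a gap of 0.18 in Atdi19-3 and of 0.72 in the wild type. Hence for AT1G76640, and also for CML23, CML30 and CML43, the wild-type arrays differed from each other by more than the genotypes did.

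**Figure D3:**
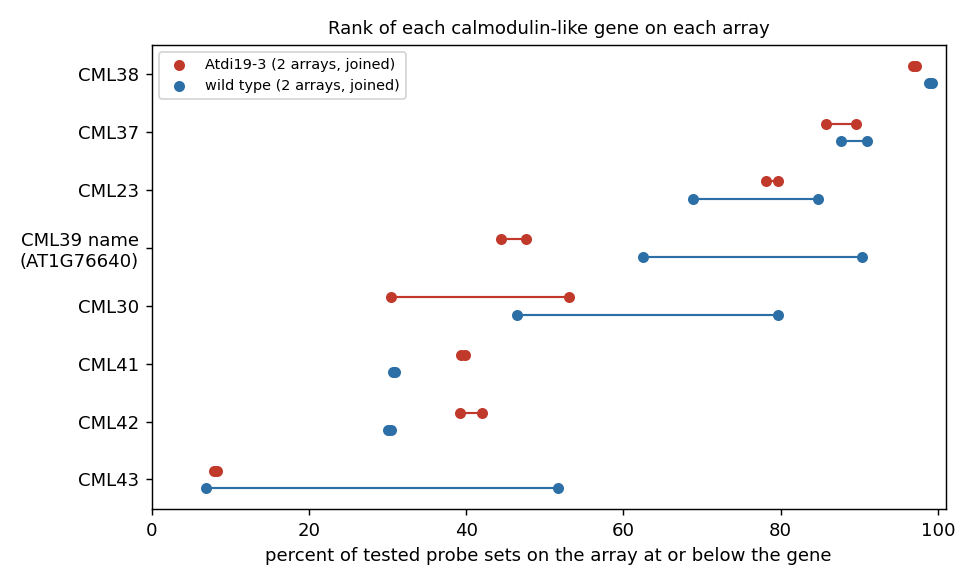
Percent of tested probe sets at or below each CML gene on each array, with the 2 arrays of a genotype joined by a line, Atdi19-3 above wild type. CML38 ranked lower on both Atdi19-3 arrays (96.8% and 97.2%) than on both wild-type arrays (98.9% and 99.3%), and the arrays of CML37 interleave.

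Around these sensors, the fixed lists of other calcium genes held few named probe sets. The 8 named channels, all of the glutamate receptor-like family, lay between 2.49 and 2.92, and limma called 0 of them (1 at an unadjusted p under 0.05, GLR1.4). Calcium pumps and exchangers, calmodulin-binding transcription factors, annexins, known targets of the kinases and touch genes had no named probe set. Of the Di19 family, DI19 (AT1G56280), a member known as a substrate of calcium-dependent kinases, read 6.84 and 7.29 on the Atdi19-3 arrays, against 4.43 on both wild-type arrays. Its log2 difference of 2.63 (standard error 0.20) was not called by limma (adjusted p = 0.056).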

How the data were processed

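RNA of whole seedlings was hybridized to 4 Affymetrix ATH1 arrays. The authors processed the scans with GCRMA (version not given in the sources used here) in R 3.4.0, per the submitters' processing notes, and deposited 1 log2 value per probe set and array. The scans were not used here, and the background correction was taken as given. With R 4.3.3 and limma 3.58.1, 22746 probe sets were fitted (lmFit, eBayes, no covariate, no filter), Atdi19-3 minus wild type, after 64 control probe sets were set aside. P-values were adjusted by Benjamini-Hochberg over all of them. The fit was tested on simulated data. The prior was worth 0.48 degrees of freedom, so 2 arrays per genotype limit the precision.

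The platform annotation assigns a single gene to 13513 tested probe sets, and 13436 matched a RefSeq TAIR10.1 gene. No probe set with several genes held one of the genes sought. All 8 members are described. The rule for naming (the 2 brightest members, the largest increase and decrease above 3, and called members) selects CML37 and CML38. The members and lists were chosen with earlier results of these data known. A difference was marked as possibly compressed by the floor under 2 conditions. The lower genotype had an array under 3 or identical arrays, and both arrays of the higher genotype were above 3. No named probe set was found for seed or flower markers. Alternatives were quantile normalization, spike-in centring, a filter on dim probe sets, limma-trend, a replicate block, leaving out each array, another level and wider name matching. The sequences of the proteins and promoters were not used here.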

Additional observations from a re-analysis of the deposited data

How the results depend on the processing

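The count of called CML genes was 0 with quantile normalization and with limma-trend, which called 1.88% and 2.91% of all tested probe sets. It was 0 with the filter on dim probe sets (3 genes left), which called 37.2% of the probe sets kept. The thresholds of the study also gave 0, beside 6.70% of all tested probe sets. So did wider matching of names, which found the same 8 genes. Leaving out each array in turn gave median log2 differences of -0.06 to 0.00. Each of these fits left 1 array in a genotype and took the spread from the other genotype alone. Calls in these fits, or a lack of calls, thus say nothing about the 8 genes. Such calls, of AT1G76640 (-1.05) and CML43 (-0.24), came without the second wild-type array. In that fit 1 wild-type array was left, the spread came from the mutant arrays alone and 16.1% of all tested probe sets were called, so these calls say nothing about the 2 genes. Centring on the spike-ins added 3.49 to every probe set, gave a median of 3.43 with all 8 genes called, and gave AT1G76640 (2.86), CML30 (3.18), CML38 (2.56) and CML43 (3.37) values above 0. It called 22742 of the 22746 tested probe sets, and the common shift alone fixed these signs and calls, so directions here are relative to the deposited scaling. Quantile normalization turned CML37 (-0.17). The filter left a median of 0.32. A level of 4 in place of 3 left 1 gene in Atdi19-3 and 1 in the wild type, and with 1 array enough the count in the wild type was 5. The replicate numbers are not stated to pair the arrays: the differences between replicates 1 and 2 correlated at 0.0171 between the genotypes across probe sets. With the replicate block limma called 0 of the 22746 tested probe sets, so its 0 of the 8 genes says nothing about them.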

Other observations

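The study's own list of genes higher in the mutant, held here in part, names 5 further probe sets as sensors or kinases of these families, which the platform annotation leaves unnamed or lists by locus only. That list was made from these same arrays and its rows held here are all on the higher side, so their direction supports nothing. In the fit used here limma called 0 of them, and 4 had an unadjusted p under 0.05. Over all tested probe sets these shares were 3.76% and 18.5%. The 4 probe sets, for CML24, CML35, CML10 and CML13, each had a log2 difference over 1 and so pass the thresholds of the study. CML24 (AT5G37770), the touch-induced gene TCH2, read 7.87 and 8.01 on the Atdi19-3 arrays, against 5.75 and 6.06 on the wild-type arrays (log2 difference 2.03, standard error 0.15, limma adjusted p = 0.055). CML35 (AT2G41410) read 6.82 and 6.32 in Atdi19-3, against 4.05 and 4.42 in the wild type (2.34, standard error 0.28, adjusted p = 0.094). CML10 (AT2G41090) read 8.52 and 8.55 in Atdi19-3, against 6.76 and 7.18 in the wild type (1.57, standard error 0.19, adjusted p = 0.092). CML13 (AT1G12310) read 6.02 and 5.93 in Atdi19-3, against 4.38 and 4.62 in the wild type (1.47, standard error 0.11, adjusted p = 0.056). CPK5 (AT4G35310), a calcium-dependent kinase of immune signalling and the 1 kinase with a name there, read 4.37 and 4.76 in Atdi19-3, against 3.83 and 4.17 in the wild type (0.56, standard error 0.23, adjusted p = 0.45).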
